A study of Mus musculus with 8 samples.

Results

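The 10 genes described here are the transcription factor NRF2 (gene Nfe2l2), its inhibitor KEAP1, and 8 enzymes and transporters of the antioxidant defence that NRF2 controls. They were taken as every probe, control spots aside, whose accession maps to Nfe2l2, Keap1, Nqo1, Gclc, Gclm, Slc7a11, Srxn1, Txnrd1, Gsr or Prdx1, which gave 17 of the 41174 probes and 10 of the 32665 genes on the array. The arrays read RNA of tumour-associated macrophages, sorted as F4/80 and CD45 double-positive cells from mammary tumours that had grown for about 21 days after PyMT breast cancer cells were placed in C57BL/6 mice. The hosts either were knockouts for ATF3, a transcription factor induced by stress (KO, 4 samples), or were wild type (WT, 4 samples). All hosts carried tumours of PyMT cells, so the genotype is that of the host, and the labels give no Atf3 genotype for the implanted cells, no age and no statement on whether samples came from separate or pooled mice. The p-values therefore measure only the spread between these samples.

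NRF2 is a basic leucine zipper factor that is made constantly and destroyed while it is bound to KEAP1, a cysteine-rich adaptor of a CUL3 ubiquitin ligase. Electrophiles and oxidants modify KEAP1, NRF2 then accumulates, pairs with small MAF proteins and binds antioxidant response elements (AREs) of its target genes. Macrophages make oxidants themselves through the phagocyte NADPH oxidase, and they rely on glutathione, thioredoxin and peroxiredoxin to withstand them. ATF3 is also a basic leucine zipper factor and has been described as a repressor of NRF2 signalling.

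The promoters of 4 genes are shown because Nfe2l2 and Nqo1 carried the sample pattern described below, while Srxn1 and Prdx1 had the narrowest ranges over the arrays by their brightest probes. They run from 250 bases before to 50 bases after the gene start in RefSeq on build GRCm38.p6, printed 5′ to 3′ on the gene's strand: Nfe2l2 at chr2:75704614-75704913 (minus), Nqo1 at chr8:107403156-107403455 (minus), Srxn1 at chr2:152105274-152105573 (plus) and Prdx1 at chr4:116685349-116685648 (plus). Capitals mark matches on either strand to the ARE core TGACNNNGC or to the AP-1 element TGANTCA, which overlap in the Prdx1 promoter.
Nfe2l2: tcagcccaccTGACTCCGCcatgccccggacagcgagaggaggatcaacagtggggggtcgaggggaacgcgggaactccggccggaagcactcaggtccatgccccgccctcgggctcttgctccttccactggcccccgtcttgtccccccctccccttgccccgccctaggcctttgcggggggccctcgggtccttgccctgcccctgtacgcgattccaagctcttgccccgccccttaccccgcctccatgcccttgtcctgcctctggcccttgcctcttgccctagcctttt
Nqo1: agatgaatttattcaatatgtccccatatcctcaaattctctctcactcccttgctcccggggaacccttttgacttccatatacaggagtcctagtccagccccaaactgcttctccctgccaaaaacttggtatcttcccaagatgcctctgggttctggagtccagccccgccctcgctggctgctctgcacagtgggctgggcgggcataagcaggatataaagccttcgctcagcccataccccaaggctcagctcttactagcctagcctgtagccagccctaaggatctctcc
Srxn1: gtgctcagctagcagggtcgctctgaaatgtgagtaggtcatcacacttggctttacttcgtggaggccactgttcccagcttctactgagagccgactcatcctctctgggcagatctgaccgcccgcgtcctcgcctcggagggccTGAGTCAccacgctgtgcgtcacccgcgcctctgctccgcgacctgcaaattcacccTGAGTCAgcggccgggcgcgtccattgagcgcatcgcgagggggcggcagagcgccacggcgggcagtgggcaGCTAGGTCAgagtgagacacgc
Prdx1: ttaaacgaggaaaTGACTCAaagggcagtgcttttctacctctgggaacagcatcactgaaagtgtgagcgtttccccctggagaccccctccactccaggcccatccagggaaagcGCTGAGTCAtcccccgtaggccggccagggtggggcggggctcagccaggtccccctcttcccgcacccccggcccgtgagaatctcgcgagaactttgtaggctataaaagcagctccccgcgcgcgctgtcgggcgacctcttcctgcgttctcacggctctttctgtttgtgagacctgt
RefSeq windows matched 8 of the 10 genes, and Gclc and Gsr had no match. The 8 genes had 10 windows, and an ARE core was found in 1 window each of 5 genes, namely Nfe2l2, Gclm, Srxn1, Txnrd1 and Prdx1. Of all 32851 promoter windows of 300 bases, 12.4% held an ARE core. The matches began, counted from the gene start, at −240 in Nfe2l2 (TGACTCCGC), −134 in Gclm (GCACCGTCA), −133 in Prdx1 (GCTGAGTCA), −92 in 1 of 3 Txnrd1 windows (GCTTTGTCA) and 29 in Srxn1 (GCTAGGTCA). Srxn1 and Prdx1 each held 2 AP-1 elements, and 7.81% of all windows held at least 1. The cyclic AMP response element TGACGTCA, found in 1.79% of all windows, occurred in none of the 8 genes' windows. These letters describe the windows only. On that build the genes lie on chromosomes 2 (Nfe2l2), 9 (Keap1), 8 (Nqo1), 9 (Gclc), 3 (Gclm), 3 (Slc7a11), 2 (Srxn1), 10 (Txnrd1), 8 (Gsr) and 4 (Prdx1).

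Both slides of 1-colour arrays carried both genotypes: KO and WT samples 1 and 2 shared slide 1, and KO and WT samples 3 and 4 shared slide 2. Levels below are log2 of the scanner's processed signal relative to each array's 75th percentile, which was 619 to 926 intensity units, and levels of different probes are not comparable with each other. Of the 10 genes, 9 were read by a probe well above background on all 8 arrays. Atf3 itself, read by a single probe, measured 5.51, 4.86, 4.96 and 4.88 in KO samples 1 to 4, against 4.92, 4.99, 4.79 and 4.51 in WT samples 1 to 4, so its transcript signal was not lower in KO. The position of that probe relative to the deletion was not known, so this signal checks nothing about the knockout, and KO and WT below are the libraries so labelled.

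None of the 10 genes was called between KO and WT macrophages. At a limma adjusted p under 0.05 the number called was 0 of 20879 genes (0%). At an unadjusted p under 0.05 it was 701 (3.36%), among them 0 of the 10. The groups did not overlap for 2.13% of all genes and for 0 of the 10. By the brightest probe of each gene, 6 were higher and 4 lower in KO, with log2 differences from −0.39 for Gclc to 0.29 for Nfe2l2 and a median of 0.06, against a median of −0.01 over all genes. By the brightest probe, the 95% interval of the difference excluded a 2-fold change either way for 8 of the 10, Nfe2l2 and Nqo1 being the exceptions. Gclm, counted among them, was well above background on only 6 of the 8 arrays. By other probes of these 8 genes some intervals passed a 2-fold change: those of Slc7a11 reached 1.31 and 1.08, and that of the dimmest Gsr probe ran from −1.28 to 1.02. The limma adjusted p was 0.9999 for each of the 10 genes, and it is not repeated below. Of the markers of other cell types, all 9 natural killer cell markers tested were higher in KO, with a median log2 difference of 0.65. So were 9 of 11 T cell markers (0.51), while 9 of 10 endothelial markers were lower (−0.80), with 0 called in each list. Without a block, the only T cell marker with an unadjusted limma p under 0.05 was lower in KO. Of 4 adipocyte markers tested, 2 were higher and 2 lower, with differences from −1.42 to 1.77. Both extremes came from dim probes, well above background on 5 arrays (−1.42) and on 6 arrays (1.77) of the 8. With the sample number as a block, 6 of the 9 natural killer, 6 of the 11 T cell and 4 of the 10 endothelial markers had an unadjusted p under 0.05. The same held for 7.57% of all genes and 0 of the 10 genes described here. These block counts take both directions together. The part of these markers in the differences below was not tested.

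**Figure D1:**
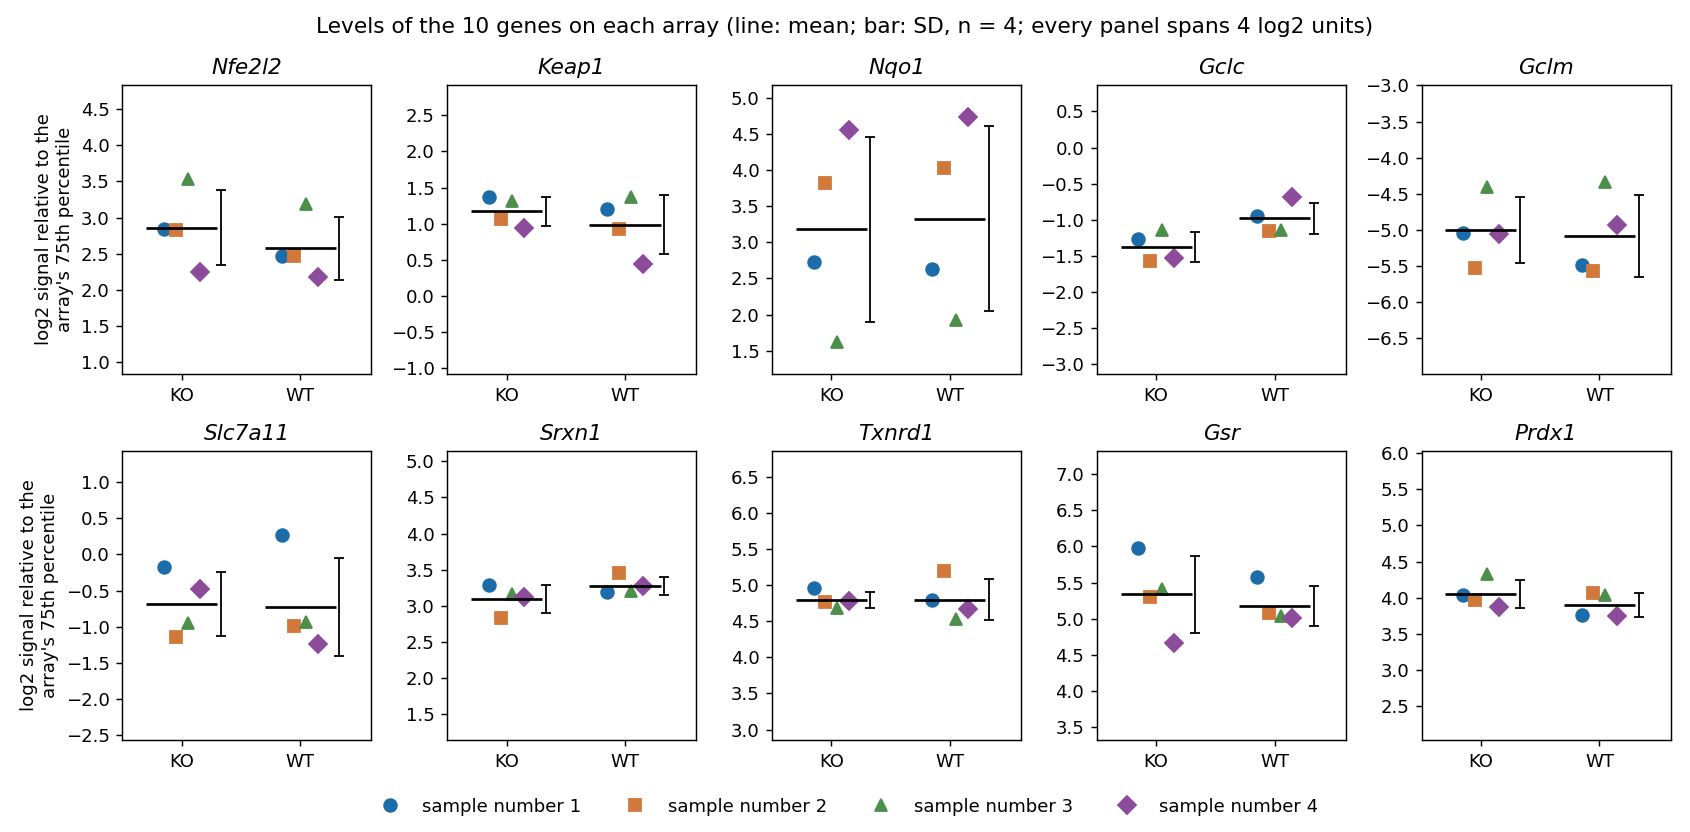
Levels of the 10 genes on each array, as log2 signal relative to the array's 75th percentile, with KO at the left and WT at the right of each panel, symbols for the sample numbers 1 to 4, lines for means and bars for SD (n = 4). The symbols of one number lie at like heights in KO and WT for Nqo1 and Nfe2l2, and KO and WT overlap in all 10 panels.

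Nfe2l2 was read by a pair of probes. The brighter one measured 2.84, 2.82, 3.53 and 2.25 in KO samples 1 to 4, against 2.47, 2.47, 3.19 and 2.18 in WT samples 1 to 4. The sample numbered 3 was the highest and the sample numbered 4 the lowest in both genotypes, and the groups overlapped. The means were 2.86 ± 0.52 in KO and 2.58 ± 0.43 in WT (SD, n = 4 each), and the difference was 0.29 (95% interval −0.47 to 1.04). Within same-numbered pairs KO exceeded WT by 0.38, 0.36, 0.34 and 0.07, and the other probe gave 0.20, 0.20, 0.24 and 0.09, so that KO was the higher sample of all 4 pairs by both probes. Of all genes, 17.1% had one direction in 4 of 4 pairs, and so did 2 of the 10, Nfe2l2 and Gclc.

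Keap1, whose protein holds NRF2 for degradation, measured 1.37, 1.07, 1.31 and 0.95 in KO samples 1 to 4, against 1.20, 0.93, 1.37 and 0.45 in WT samples 1 to 4. WT sample 4 was the lowest of all 8. The log2 difference was 0.18 with a 95% interval of −0.36 to 0.73.

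Among the targets, Nqo1, a quinone reductase used as a standard readout of NRF2 activity, varied far more between samples than between genotypes. It measured 2.73, 3.82, 1.62 and 4.55 in KO samples 1 to 4, against 2.63, 4.03, 1.92 and 4.73 in WT samples 1 to 4. The samples numbered 4 were the highest, then those numbered 2, 1 and 3, in each genotype, and the range over the arrays was 8.61-fold. In intensity units the lowest signal was 2529 in KO and 2774 in WT, both in samples numbered 3, and the highest was 18427 in KO and 20887 in WT, both in samples numbered 4. The means were 3.18 ± 1.28 in KO and 3.33 ± 1.28 in WT (SD, n = 4 each), and the difference was −0.15 (95% interval −2.00 to 1.71). Within same-numbered pairs KO minus WT was 0.10, −0.21, −0.30 and −0.18, and with the sample number as a block the interval was −0.48 to 0.19. Without the block, the direction turned with normexp background correction (0.03) and without KO sample 1 or 3 or WT sample 2 or 4.

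Glutathione is made by glutamate-cysteine ligase, which has a catalytic subunit, Gclc, and a modifier subunit, Gclm. Gclc measured −1.27, −1.57, −1.14 and −1.53 in KO samples 1 to 4, against −0.94, −1.16, −1.14 and −0.69 in WT samples 1 to 4. KO was the lower sample of all 4 pairs, with differences of −0.32, −0.41, −0.001 and −0.84, so the pair numbered 3 hardly differed, and the groups overlapped. The means were −1.38 ± 0.21 in KO and −0.98 ± 0.22 in WT (SD, n = 4 each), and the difference was −0.39 (95% interval −0.83 to 0.04). Its limma p was the smallest of the 10 without the sample number as a block, while with it that of Nfe2l2 was smaller. The difference was −0.37 within slide 1 and −0.42 within slide 2. The mean level of 10 endothelial markers was −2.78, −2.57, −3.00 and −1.50 in KO samples 1 to 4 and −2.17, −1.003, −2.81 and −0.47 in WT samples 1 to 4. This mean was lower in KO in each pair, but in the pair numbered 3 the single markers went both ways. Sox17, well above background on only 4 of the 8 arrays, differed by −2.27 there, so the mean of that pair leans on a dim probe. The part of endothelial markers in the Gclc difference was not tested.

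Gclm was dim, with signals of 19.4 to 38.6 intensity units in KO and 13.9 to 36.1 in WT. It was well above background on all 4 KO arrays and on 2 of the 4 WT arrays. It measured −5.04, −5.52, −4.41 and −5.05 in KO samples 1 to 4, against −5.48, −5.57, −4.34 and −4.93 in WT samples 1 to 4. The samples numbered 3 were the highest in both genotypes. WT samples 1 and 2, both at 13.9 units, were the arrays not well above background, and their levels have no order. The log2 difference was 0.07 with a 95% interval of −0.72 to 0.87, 0.24 within slide 1, −0.10 within slide 2 and −0.66 with normexp background correction.

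Slc7a11 encodes the light chain of the cystine-glutamate exchanger, which supplies cysteine for glutathione. Its brightest probe measured −0.17, −1.14, −0.94 and −0.47 in KO samples 1 to 4, against 0.26, −0.99, −0.94 and −1.24 in WT samples 1 to 4. The samples numbered 1 were the highest of each genotype. The 3 probes did not follow one pattern: a second probe measured −0.24, −1.67, −0.98 and −1.59 in KO samples 1 to 4, against −1.15, −0.55, −1.52 and −2.32 in WT samples 1 to 4, where sample 2 was the highest. The log2 differences of the 3 probes were 0.04, 0.26 and 0.23. By the brightest probe the difference was −0.29 within slide 1 and 0.38 within slide 2.

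Gsr, glutathione reductase, returns oxidised glutathione to its reduced form at the cost of NADPH. It measured 5.97, 5.30, 5.42 and 4.67 in KO samples 1 to 4, against 5.58, 5.08, 5.04 and 5.004 in WT samples 1 to 4. The sample numbered 1 was the highest of each genotype, and KO sample 4 was the lowest of all 8. The log2 difference was 0.16 with a 95% interval of −0.52 to 0.84. A second bright probe gave 0.22, and the remaining, dimmer one gave −0.13.

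The thioredoxin arm, Txnrd1, Prdx1 and Srxn1, had the narrowest ranges over the 8 arrays of the 10 genes by their brightest probes, and the other Srxn1 probes ranged over 1.04 and 0.92 on the log2 scale. Txnrd1, the cytosolic thioredoxin reductase, measured 4.95, 4.77, 4.68 and 4.78 in KO samples 1 to 4, against 4.797, 5.20, 4.53 and 4.67 in WT samples 1 to 4. Its means were 4.796 ± 0.114 in KO and 4.799 ± 0.288 in WT (SD, n = 4 each), and the 95% interval of the log2 difference was −0.44 to 0.44. Prdx1, a peroxiredoxin that removes hydrogen peroxide, measured 4.04, 3.97, 4.33 and 3.87 in KO samples 1 to 4, against 3.76, 4.07, 4.03 and 3.75 in WT samples 1 to 4. KO exceeded WT in 3 of 4 pairs, by a log2 difference of 0.15 with a 95% interval of −0.26 to 0.55.

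Srxn1, sulfiredoxin, repairs over-oxidised peroxiredoxins. Its brightest probe measured 3.29, 2.83, 3.17 and 3.12 in KO samples 1 to 4, against 3.19, 3.46, 3.205 and 3.27 in WT samples 1 to 4. KO sample 2 was the lowest and WT sample 2 the highest, so by this probe the levels did not follow the sample number. The log2 difference was −0.18 with a 95% interval of −0.56 to 0.21, and the other probes gave −0.11 and −0.14.

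**Figure D2:**
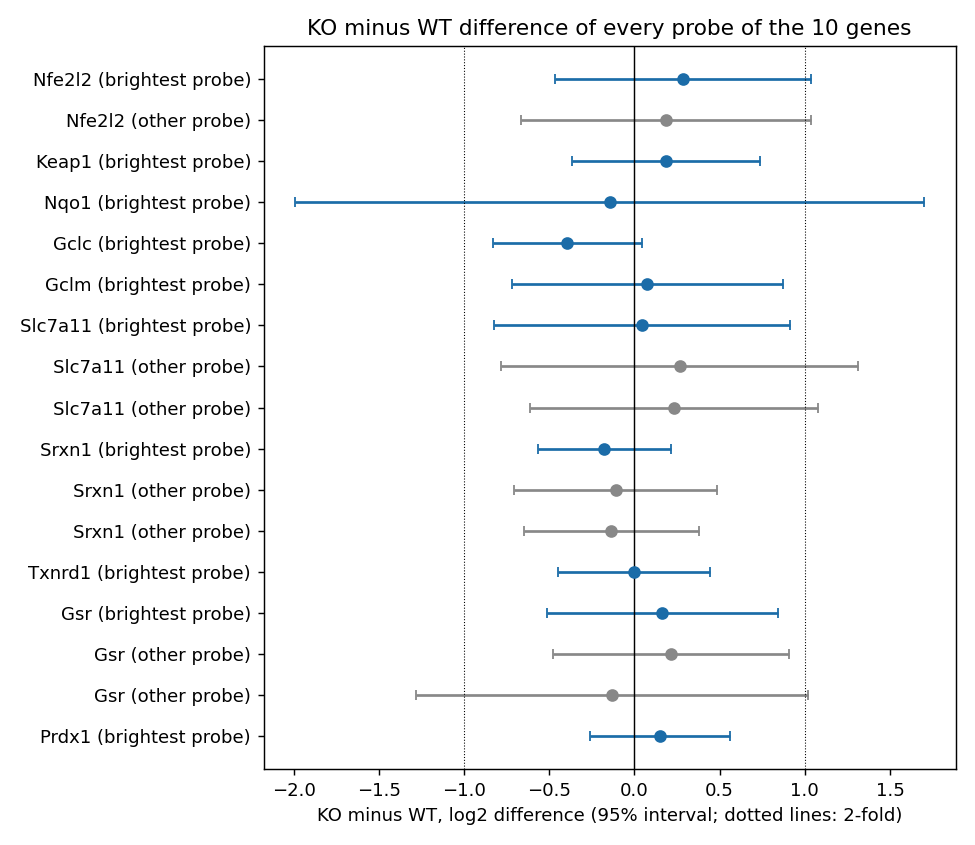
KO minus WT log2 difference of each of the 17 probes with its 95% interval from the fit over probes, the brightest probe of a gene in blue and its other probes in grey, with dotted lines at a 2-fold change. Every interval spans 0, that of Nqo1 is the widest, and that of Gclc reaches least above 0.

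Samples that shared a number resembled each other, and the 10 genes differed in how far they did so. The sample number took 99.1% of the sum of squares of Nqo1 over the 8 arrays, 93.2% of Gclm (with WT samples 1 and 2 not well above background), 87.5% of Nfe2l2 and 77.9% to 79.8% of Keap1, Slc7a11 and Gsr. It took 61.9% of Prdx1, 57.2% of Txnrd1 and 15.8% of Gclc. For Srxn1 it took 3.98% by the brightest probe and 37.9% and 49.7% by the others. The median over all genes was 66.3%, where 42.9% corresponds to the number's degrees of freedom. Genotype took 53.4% of Gclc, its largest share among the 10 genes, and 0.43% of Nqo1, where 14.3% corresponds to its degree of freedom.

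The order seen in Nqo1, sample 4 highest, then 2, 1 and 3 in each genotype, was also that of tumour epithelial markers. Of 14 such markers 13 were tested, all well above background on all 8 arrays, and 9 of the 13 had exactly this order in both genotypes, as did 4.34% of all genes. Their mean level was 0.62, 1.77, −0.49 and 2.68 in KO samples 1 to 4 and 0.47, 1.70, −0.53 and 2.24 in WT samples 1 to 4. The keratin gene Krt8 measured 3.27, 4.34, 1.52 and 4.96 in KO samples 1 to 4, against 3.51, 4.52, 1.63 and 4.91 in WT samples 1 to 4, and Epcam 1.75, 2.70, −0.05 and 3.41 in KO samples, against 1.61, 2.65, −0.08 and 3.18 in WT samples. Marker means of other cell types came near this order too. The mean of 10 endothelial markers, given above, had it in both genotypes, though 0 of the 10 had it singly. The mean of 8 fibroblast markers had it in WT, and in KO it was also highest in sample 4 and lowest in sample 3. Singly, 1 of the 8 had the order. The part of epithelial, endothelial or fibroblast RNA in the Nqo1 signal was not tested. In sorted bulk samples fewer cells of a type and less RNA per cell cannot be told apart.

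Nfe2l2 had the opposite order, sample 3 highest, then 1, 2 and 4, which 3.46% of all genes and 4 of 11 macrophage markers had in both genotypes. By its brighter probe samples 1 and 2 were all but level in both genotypes. The other probe gave 2.76 and 2.54 in KO samples 1 and 2, and 2.56 and 2.34 in WT samples 1 and 2. The mean level of the 11 macrophage markers was 4.36, 3.97, 4.67 and 3.48 in KO samples 1 to 4 and 4.29, 4.14, 4.70 and 3.46 in WT samples 1 to 4. Of the genes for the sort markers, Adgre1, which encodes F4/80, measured 4.32, 3.80, 4.68 and 3.47 in KO samples 1 to 4, against 4.45, 4.08, 4.71 and 3.33 in WT samples 1 to 4, in the same order. Ptprc, which encodes CD45, averaged 4.42 ± 0.55 in KO and 4.52 ± 0.54 in WT (SD, n = 4 each) and was lowest in sample 4 of each genotype. The part of the macrophage share in the Nfe2l2 signal was not tested.

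**Figure D3:**
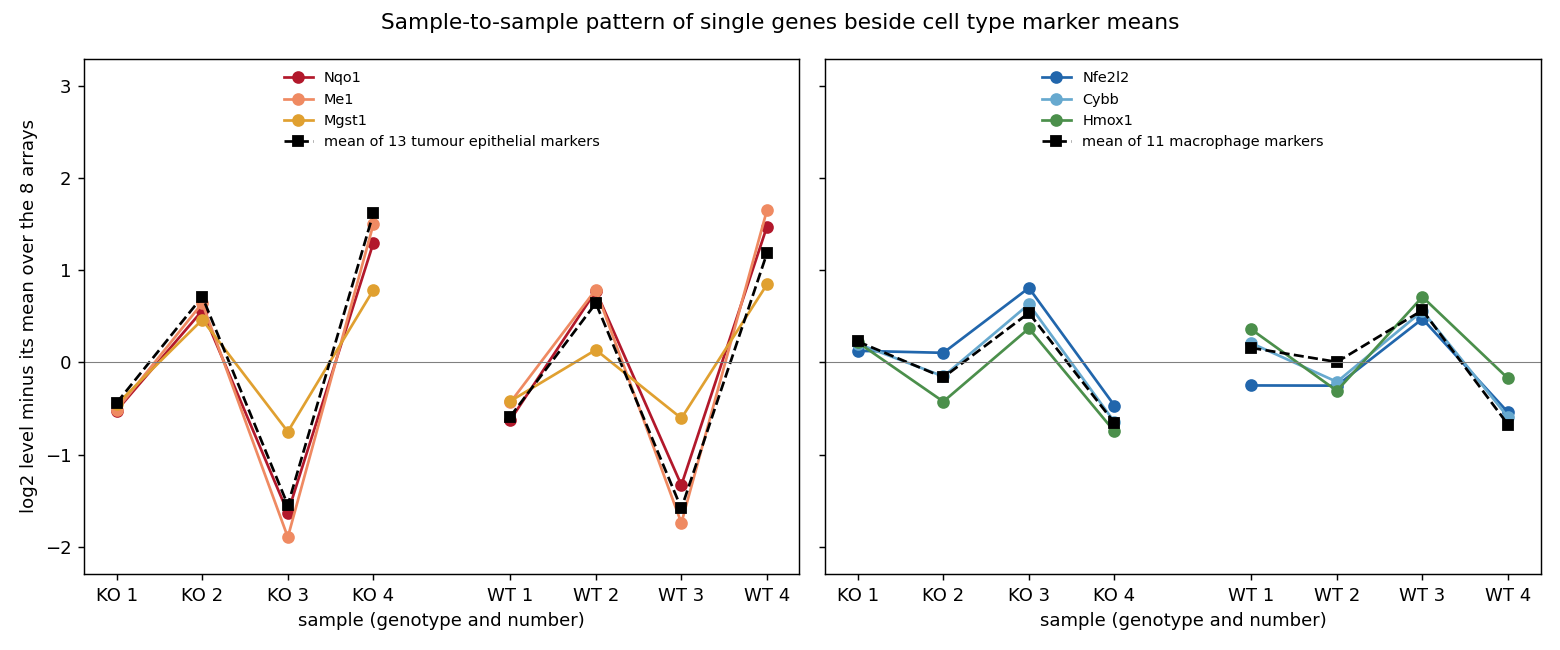
Log2 levels of single genes, each minus its mean over the 8 arrays, for KO samples 1 to 4 and then WT samples 1 to 4, with marker means as dashed black lines. At the left Nqo1, Me1 and Mgst1 run with the mean of 13 tumour epithelial markers, highest in samples numbered 4. At the right Nfe2l2, Cybb and Hmox1 run with the mean of 11 macrophage markers, highest in samples numbered 3.

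By mean-centred levels over the 8 arrays, the genes nearest to Nqo1 were Nck2, Cryab and Mettl27, with root-mean-square differences of 0.13, 0.14 and 0.15 on the log2 scale. Those nearest to Nfe2l2 were Pla2g4a, Tmem221 and Zfp946, each at 0.11. Nck2 measured 1.93, 3.15, 0.71 and 3.54 in KO samples 1 to 4, against 1.87, 3.01, 0.94 and 4.01 in WT samples 1 to 4.

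Around NRF2, 15 genes of its control, Nfe2l2 and Keap1 included, were tested, 0 were called, and 7 were higher and 8 lower in KO, with a median log2 difference of −0.02. Bach1, a repressor that competes for AREs, had the smallest p of the list, with −0.72, −1.18, −0.59 and −1.91 in KO samples 1 to 4, against −0.81, −1.18, 0.03 and −0.23 in WT samples 1 to 4 (log2 difference −0.55). The small MAF genes Mafg, Mafk and Maff differed by −0.32, −0.19 and 0.04, and Btrc, of a second ubiquitin ligase that targets NRF2, by 0.43. The Btrc difference had a standard error of 0.39, and its same-numbered pairs differed by −0.14, 1.64, 0.20 and 0.02.

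Of 31 NRF2 target enzymes, Nqo1 among them, 29 were tested and 0 were called, with 13 higher, 16 lower and a median of −0.03. The glutathione transferase gene Gsta1 was the only 1 of the 29 with an unadjusted limma p under 0.05 (0.0471). Of all genes 3.36% had such a p, so the count does not set the list apart. It measured −4.64, −4.78, −4.25 and −3.79 in KO samples 1 to 4, against −6.06, −7.21, −5.92 and −4.06 in WT samples 1 to 4, and it was well above background on 6 of the 8 arrays. In WT samples 1 and 2 its levels lay below those at which Gclm was not well above background on the same arrays. The size of the difference is therefore uncertain. Gsta1 belongs to a family of close copies, whose probes may not tell members apart. Pir, which encodes pirin, differed by 0.41, the biliverdin reductase gene Blvrb by 0.42 and Gsta3 by −1.12 with a standard error of 0.91. Hmox1, the heme-degrading oxygenase that is a target of both NRF2 and its repressor BACH1, measured 5.69, 5.05, 5.84 and 4.72 in KO samples 1 to 4, against 5.83, 5.17, 6.18 and 5.30 in WT samples 1 to 4. KO was the lower sample of all 4 pairs for Hmox1, with a log2 difference of −0.29 and a 95% interval of −1.08 to 0.49. One direction in 4 of 4 pairs was seen for 6 of the 29, against 17.1% of all genes. Me1, which makes NADPH from malate and was named after its values were seen, shared the order of Nqo1, with 0.76, 1.92, −0.62 and 2.78 in KO samples 1 to 4, against 0.84, 2.07, −0.47 and 2.93 in WT samples 1 to 4.

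Of 31 genes of glutathione synthesis and use 30 were tested and 0 were called, with 20 higher and 10 lower in KO and a median of 0.07. Chac2, which breaks glutathione down, had log2 levels of −3.43 ± 0.78 in KO and −4.36 ± 0.66 in WT (SD, n = 4 each), a difference of 0.93. Hagh, of the glyoxalase system, differed by −0.36, the 5-oxoprolinase gene Oplah by 0.33 and glutathione synthetase, Gss, by 0.25. With the sample number as a block, 2 of these 30, Chac2 and Oplah, had an unadjusted p under 0.05, and none was called. Of all genes 7.57% had such a p, so the count sets this list apart in no way. The order of Nqo1 was shared by 4 of the 30, against 4.34% of all genes. Of the 4, Cth was not well above background on every array. Among them was the microsomal glutathione transferase gene Mgst1, named after its values were seen. It measured 3.01, 3.93, 2.72 and 4.26 in KO samples 1 to 4, against 3.05, 3.60, 2.86 and 4.31 in WT samples 1 to 4.

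In the thioredoxin and peroxiredoxin list 18 genes were tested and 0 were called, with 12 higher and 6 lower in KO and a median of 0.04. The mitochondrial thioredoxin Txn2 differed by 0.27 and the mitochondrial peroxiredoxin Prdx3 by 0.29, and for each KO was the higher sample of all 4 pairs. Sesn2, a stress-induced sestrin, differed by −0.28 and was lower in KO in all 4 pairs. Of the 18 genes 5 had one direction in 4 of 4 pairs, against 17.1% of all genes. Of 5 genes for superoxide and peroxide removal 0 were called, and their differences lay between −0.15 for Sod2 and 0.08 for Cat.

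The phagocyte NADPH oxidase, the enzyme that makes superoxide in these cells, gave log2 differences between −0.05 and 0.25. Of 8 genes 0 were called, with 6 higher and 2 lower in KO and a median of 0.04. Cybb, the catalytic subunit, measured 3.04, 2.69, 3.47 and 2.19 in KO samples 1 to 4, against 3.05, 2.63, 3.40 and 2.25 in WT samples 1 to 4, a log2 difference of 0.02 with a 95% interval of −0.79 to 0.83. Its partner Cyba differed by 0.10. The sample number took a median of 97.0% of the sum of squares in this list. The order of Nfe2l2 was that of Cybb, Rac1 and Ncf1, 3 of the 8, against 3.46% of all genes.

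**Figure D4:**
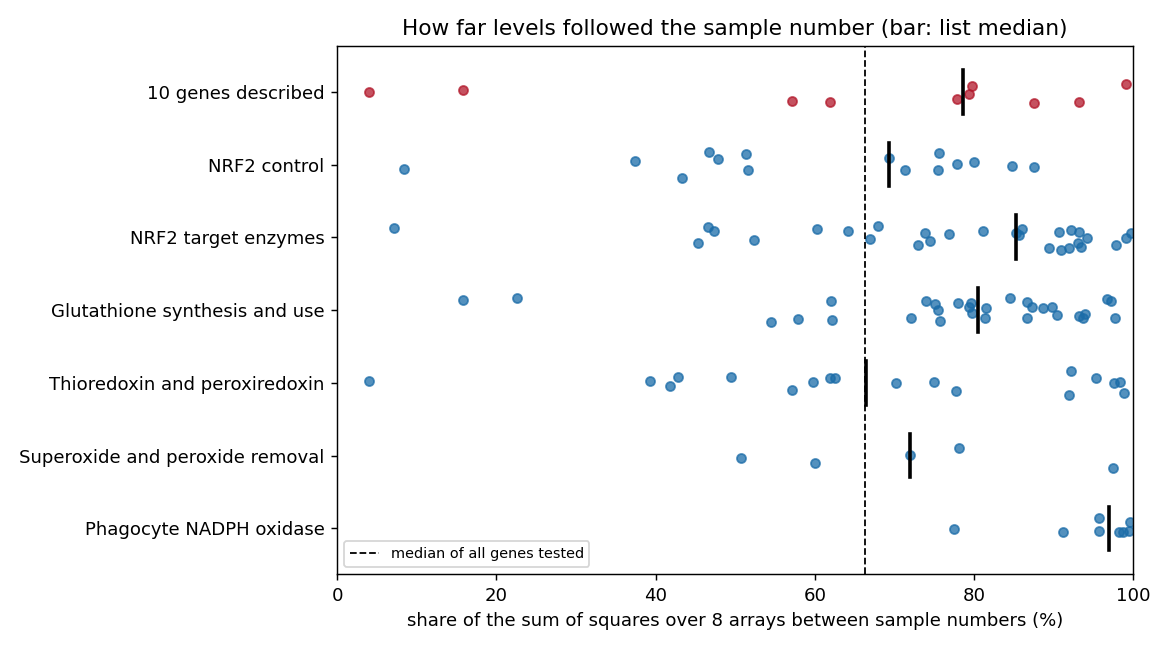
Share of each gene's sum of squares over the 8 arrays that lies between sample numbers, for the 10 genes in red and for 6 lists of redox genes in blue, with list medians as bars and the median of all genes, 66.3%, as a dashed line. The phagocyte oxidase genes crowd at the right, with a median of 97.0%, while Gclc and Srxn1, by its brightest probe, lie far to the left.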

How the data were processed

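RNA was total RNA, amplified and marked with Cy3, per the labels' protocols. The authors read the arrays with Agilent Feature Extraction, version 10.7.1.1 per the file headers and 10.5 per the submitters' processing notes. Spot intensity was deposited as a processed signal, with background already removed, and as median signals beside 0 or 1 marks for spots that were well above background, saturated or outlying. A second deposited table of the authors holds processed intensity of unstated scale, and its log2 values served as an alternative.

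After control spots and outlying spots were dropped, log2 signals were averaged per probe and set relative to the 75th percentile of the array. A probe stayed if well above background on at least 4 arrays (27165 of 41174), and a gene was read by its brightest such probe (20879 genes). RefSeq accessions of GRCm38.p6 named 25097 probes. The test was limma 3.58.1 (lmFit, eBayes, R 4.3.3), two-sided and adjusted by Benjamini-Hochberg over all genes; second probes come from the same model run over probes. On data simulated for KO against WT with 20879 genes, it recovered 22% of the genes changed 2-fold and 62% of those changed 4-fold. It recovered 72% at 8-fold and 94% at 16-fold, and made 4 false calls. The 50 genes of each size were raised in KO together in the same simulated set. The shares may therefore overstate recovery where few genes change. The number of arrays limits precision.

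For KO and WT samples of the same number, deviations from the group mean correlated across genes at 0.30, 0.14, 0.70 and 0.51 (numbers 1 to 4). All lie above 0.1, and samples were therefore treated as paired by number in the block alternative, although no label says what a number shares. KO sample 2 with WT sample 4 (0.14) and KO sample 4 with WT sample 2 (0.15) lie above it too.

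Members, lists and alternatives were chosen with earlier results of these data known. By rule the text names the 10 members, Atf3, Adgre1, Ptprc, Hmox1, Cybb and Cyba, up to 4 others per redox list by smallest p, up to 3 per marker list, and the 3 genes nearest in pattern to Nfe2l2 and to the member of widest range. Other names, and the orders of sample numbers, were picked after values were seen. Alternatives were normexp on median signals (offset 50), quantile scaling, a stricter and an absent filter, the deposited table, slide as a block, each slide alone, the replicate block, single probes, eBayes with trend and robust, and every sample left out in turn.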

Additional observations from a re-analysis of the deposited data

Results flagged for a closer look

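The brightest Gsr probe in WT samples was flagged because WT sample 1, at 5.58, lay apart from the other WT samples, which lay between 5.004 and 5.08. The gap to its nearest neighbour was 0.869 of the group's range, above Dixon's 95% limit for 4 samples. KO sample 1 was likewise the highest KO sample for Gsr, at 5.97. This was 1 of 34 groups of probe values examined, where chance flags about 1 in 20.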

How the results depend on the processing

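None of the 10 genes was called under any alternative run. The count of all genes called was 0 in each of them except without KO sample 1, where it was 1 (Hc, complement C5, named after its values were seen), so over the left-out samples it ranged from 0 to 1. With the replicate number as a block 0 genes were called, and 1580 had an unadjusted p under 0.05 against 701 without it. By the brightest probes, the intervals of all 10 genes then excluded a 2-fold change, against 8 without the block. The block left each of the 10 differences as it was, and the standard error for Nqo1 was 0.13 with it and 0.80 without it. Nfe2l2, Keap1, Gclc, Srxn1 and Prdx1 kept their direction in all alternatives run. Normexp background correction, which moved the median of all genes to −0.14, turned Nqo1 to 0.0331, Gclm to −0.66 and Txnrd1 to 0.22. Txnrd1 also turned with quantile normalization (0.0103), the deposited table (0.0554) and slide 2 alone (0.13), Gclm with slide 2 alone (−0.10) and Slc7a11 with slide 1 alone (−0.29). One Gsr probe gave −0.13. Over the left-out samples the differences ranged from −0.61 to 0.37 for Nqo1, −0.12 to 0.32 for Gclm, −0.13 to 0.37 for Slc7a11, −0.0931 to 0.13 for Txnrd1 and −0.0471 to 0.39 for Gsr. Without the block these genes differed by less than their standard errors, and the cause of the turns was not tested. The medians of the 6 redox lists moved by less than the replicate spread with no filter or the stricter filter. Gclm, not well above background on 2 WT arrays, is the gene whose value signal over background limits most.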

Other observations

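Several redox genes outside the 10, named after their values were seen, shared the order of samples found in Nqo1. Among the lists of redox genes these were Me1, Mgst1, Gpx8, Cbs, Sesn3 and Sod3, and also Cth, which was well above background on only 5 of the 8 arrays, so its order there is not measured. Cbs, the first enzyme of the route from homocysteine to cysteine, measured −3.49, −1.84, −4.14 and −1.36 in KO samples 1 to 4, against −4.20, −1.69, −4.28 and −0.87 in WT samples 1 to 4. The secreted superoxide dismutase Sod3 measured −4.15, −3.83, −4.67 and −3.02 in KO samples 1 to 4, against −4.37, −3.58, −4.88 and −2.83 in WT samples 1 to 4. The order of Nfe2l2 was shared by G6pdx, Slc48a1, Gsto1, Msrb1, Cybb, Rac1 and Ncf1.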
